A study of Mus musculus with 8 samples.

Results

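Transcript levels of 7 genes of the glucocorticoid response, Nr3c1, Hsd11b1, Fkbp5, Tsc22d3, Sgk1, Per1 and Pdk4, were described in mouse hippocampal cells and in CD4+ T cells of the meninges. They were taken by gene symbol from the 55367 symbols of the deposited gene tables, and each of the 7 had 1 row in all 4 tables. The study asked how the depletion of regulatory T cells alters the cells around hippocampal neural stem cells, and how heterogeneous meningeal CD4+ T cells are. The hippocampal libraries held live cells without CD45 or Thy1 on their surface, from Foxp3-DTR- mice (DTRneg) and from Foxp3-DTR+ littermates (DTRpos), in which the diphtheria toxin receptor is tied to Foxp3, the lineage factor of regulatory T cells. Mice of both genotypes received diphtheria toxin, 2 mice were pooled into each library, and there was 1 library per genotype, so DTRpos against DTRneg has no replicate and no test. The meningeal cells were sorted as CD45+ CD3+ CD4+ from untreated mice, Foxp3-GFP mice in replicate 1 and B6.WT mice in replicate 2. These replicates thus differed in genotype as well as in library. The labels give no age for any mouse, and T cells and hippocampal cells came from different animals.

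Glucocorticoids enter cells freely and bind the glucocorticoid receptor, encoded by Nr3c1, a transcription factor that waits in the cytoplasm in a complex with heat shock proteins and then moves to the nucleus. How much hormone a cell meets is set locally by 11-beta-hydroxysteroid dehydrogenase type 1 (Hsd11b1), which regenerates active corticosterone from its inert form. In the brain the hormone acts on neurons, glia and vessels, and in T cells it restrains activation. Among the genes that the receptor induces in many tissues are Fkbp5, a co-chaperone that lowers the receptor's affinity for the hormone, Tsc22d3, which encodes the leucine zipper protein GILZ, Sgk1, a kinase that regulates ion channels and transporters, Per1, a component of the circadian clock, and Pdk4, a kinase that turns pyruvate dehydrogenase off. Each of these also answers to other signals, Sgk1 and Per1 among them to stress and to immediate early stimuli, so a level is not a measure of hormone.

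The receptor binds a palindrome of 2 short arms, which gives a sequence by which the promoters could be compared. In RefSeq (GRCm38.p6), 14 promoter windows of 250 bases before an annotated start matched 6 of the 7 genes, and Nr3c1 and its neighbours on the same chromosome were not searched. The motif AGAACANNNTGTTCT, which is its own reverse complement, was in 1 of these 14 windows, an Sgk1 window, and in 3 of all 32851 promoter windows of the same length on the other chromosomes (0.00913%). The looser motif GNACANNNTGTNC was in that window alone among the 14 and in 127 of all windows (0.387%). A single arm, TGTTCT on either strand, was in 3 of 6 Sgk1 windows and 1 of 3 Tsc22d3 windows, counting the arms of the palindrome itself, and in 5284 of all windows (16.1%). The 3 windows below are shown because one of them holds the palindrome and because Sgk1 and Tsc22d3 are the receptor-induced members with the most UMIs: the Sgk1 window with the palindrome in capitals, on the plus strand of chr10:21993640-21993889, the window of the Sgk1 start downstream of it, on the plus strand of chr10:21994416-21994665, and a Tsc22d3 window on the minus strand of chrX:140548572-140548821.
Sgk1, upstream start: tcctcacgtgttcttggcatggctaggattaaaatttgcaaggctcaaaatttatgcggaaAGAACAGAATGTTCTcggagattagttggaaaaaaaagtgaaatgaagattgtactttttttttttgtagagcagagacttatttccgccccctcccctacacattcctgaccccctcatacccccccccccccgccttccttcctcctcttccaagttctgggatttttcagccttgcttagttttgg
Sgk1, downstream start: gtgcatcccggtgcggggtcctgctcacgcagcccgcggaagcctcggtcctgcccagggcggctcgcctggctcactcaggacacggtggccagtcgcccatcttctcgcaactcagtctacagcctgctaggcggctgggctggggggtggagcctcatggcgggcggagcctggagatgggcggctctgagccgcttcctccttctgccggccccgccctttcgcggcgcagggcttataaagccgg
Tsc22d3: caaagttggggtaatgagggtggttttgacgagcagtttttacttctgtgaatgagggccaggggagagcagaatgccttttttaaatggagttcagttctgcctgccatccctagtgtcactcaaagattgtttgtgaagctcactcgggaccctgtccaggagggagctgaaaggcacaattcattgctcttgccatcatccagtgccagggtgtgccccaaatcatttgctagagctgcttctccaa
The capitals mark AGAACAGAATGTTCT at chr10:21993701-21993715, which ends 175 bases before its start. None of the 3 motifs is in the other windows shown, and none of the 3 windows overlaps an annotated exon. The reads do not tell which start a transcript used, and a match is a description of the letters, not evidence of binding.

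The libraries held 60890248 and 68830571 UMIs in meningeal replicates 1 and 2, 53484704 in DTRneg and 35814655 in DTRpos. After filters 6863 DTRneg and 5691 DTRpos cells were used, with medians of 6003 and 4509 UMIs per cell, and 1432 and 2466 T cells, with medians of 2913.5 and 1611.5 UMIs. Meningeal replicates shared 554 cell barcodes (4.13% of those of replicate 1), and the hippocampal libraries shared 18. Hippocampal cells were put into a class by the UMIs of 1 marker: Aqp4 (astrocytes; 650 DTRneg and 683 DTRpos cells), Pdgfra (oligodendrocyte precursors; 671 and 817), Mog (oligodendrocytes; 3718 and 2584), Cldn5 (endothelium; 483 and 357), Rgs5 (mural cells; 194 and 156) and Dcn (fibroblasts; 54 and 39). Every other marker listed for a class, 6 or 7 per class, was at least 1.5 times its mean over the other classes in that class in both libraries. The Dcn class also carried 12224 and 12357 CPM (UMIs scaled to a common total) of the Rgs5-class markers against 5502 and 5788 of its own. Of these 6 Rgs5-class markers, 1 was raised in the Dcn class and 2 had 0 UMIs there, in each library. Whether mural cells were mixed into this class was not tested. Choroid plexus markers summed to 1822 CPM in the Cldn5 class, 3561 in the Rgs5 class and 6934 in the Dcn class of DTRneg but to 89.5, 42.2 and 184 CPM in DTRpos, and their part in the results below was not tested. Foxp3 itself had 0 UMIs in both hippocampal libraries, so the depletion cannot be seen in them.

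Within the hippocampus the 7 genes were spread over the classes in different ways. Endothelial cells, the Cldn5 class, had the highest levels of Tsc22d3 and Sgk1. Their CPM of Nr3c1 and Per1 was also the highest, but without a clear gap. Its range over the libraries overlapped that of Mog cells for Nr3c1 and that of Rgs5 cells for Per1. Astrocytes, the Aqp4 class, had the highest CPM of Hsd11b1 and Pdk4 but almost no Sgk1, and oligodendrocyte precursors had the most Fkbp5 and the least Tsc22d3. Levels are given as CPM of the UMIs summed over the cells of a class, with exact Poisson intervals (95%) that cover counting error only, and the plot of levels by hippocampal class shows all of them.

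**Figure D1:**
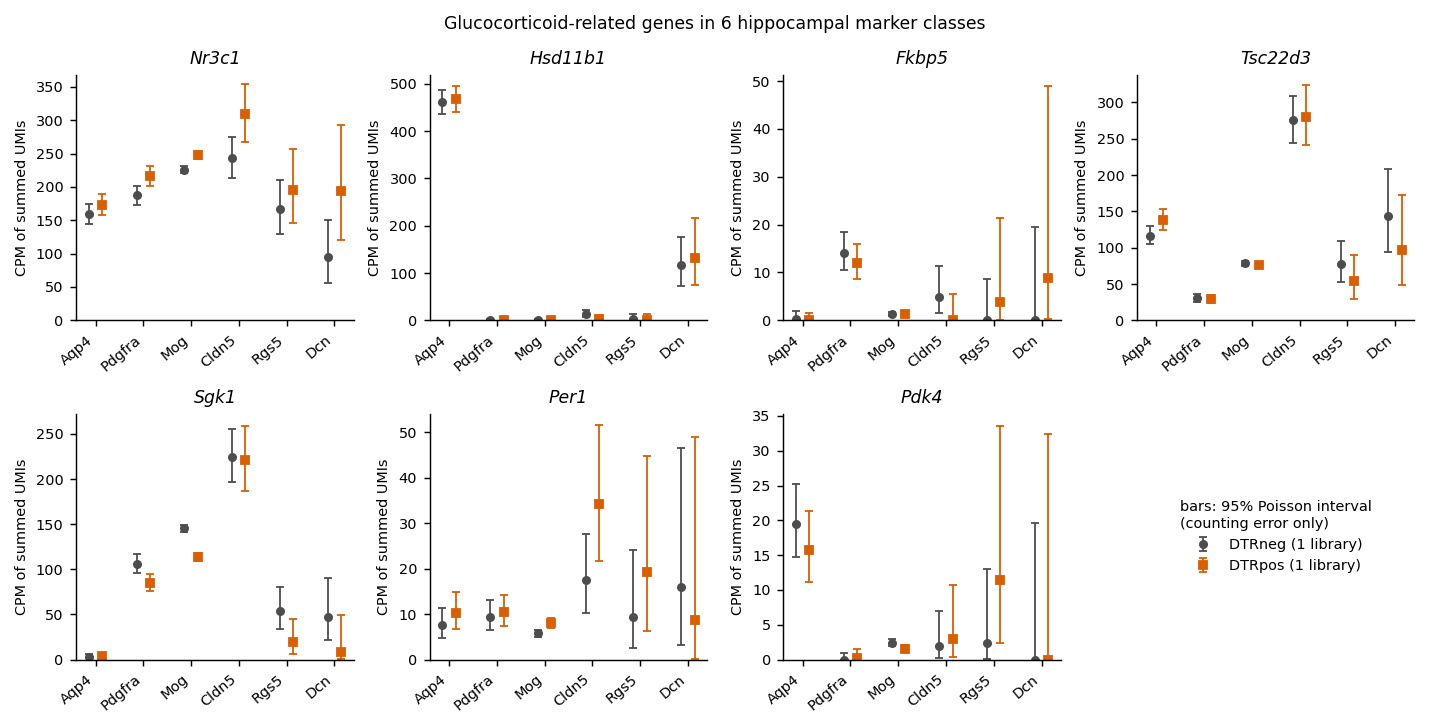
Level of each of the 7 genes in the 6 hippocampal classes, in CPM on a linear axis from 0 that differs between genes, with 1 point per library (DTRneg and DTRpos) and 95% exact Poisson intervals for counting error. Hsd11b1 stands at 461 and 468 CPM in the Aqp4 class, and Sgk1 is at 3.08 and 3.53 CPM there but at 225 and 221 CPM in the Cldn5 class.

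Nr3c1, the receptor, was the most evenly spread of the 7. It was at 243 CPM in DTRneg and 309 CPM in DTRpos in the Cldn5 class, 226 and 248 in Mog, 187 and 216 in Pdgfra, 166 and 196 in Rgs5, 159 and 173 in Aqp4, and 95.5 and 193 in Dcn, the last from 18 and 22 UMIs. The highest class was thus within 1.91 times the lowest, taking the mean of the libraries. In the fit of all 12 class sums (edgeR quasi-likelihood test, library as a covariate, Benjamini-Hochberg over 13612 genes) Nr3c1 was higher in Mog cells than in the mean of the other 5 classes by 0.76 ± 0.0840 on the log2 scale (SE, edgeR adjusted p = 6.58e-19) and in Cldn5 cells by 0.68 ± 0.107 (edgeR adjusted p = 1.33e-09). It was lower in Pdgfra cells, by -0.37 ± 0.0961, and in Dcn cells, by -0.81 ± 0.214 (edgeR adjusted p = 0.000278 and 0.00182). The Dcn difference was -0.48 without the DTRneg library and -1.24 without the DTRpos library. The fit rescales the sums (TMM), and by plain CPM Pdgfra cells were not low: they ranked 3 of 6, above Aqp4 cells. With the RLE size factors the Mog difference was 0.59.

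Hsd11b1 (chr1:193221634-193264075, minus strand, GRCm38) had its highest level in the Aqp4 class. It was at 461 CPM (436.8 to 486) in DTRneg astrocytes and 468 CPM (442 to 495) in DTRpos astrocytes, from 1348 and 1192 UMIs. Mog cells had 1.37 and 0.787 CPM, Pdgfra cells 0.55 and 1.33, Rgs5 cells 2.34 and 0, and Cldn5 cells 13.6 and 2.98, where 14 UMIs came from 3 cells in DTRneg. With each cell thinned to 2000 UMIs, 53.0% and 49.5% of Aqp4 cells had an Hsd11b1 UMI against 0.272% and 0.279% of Mog cells, which serve as the background of free RNA. The Dcn class stood between, at 117 and 132 CPM from 22 and 15 UMIs. Over the 12 sums the gene had the largest F of the 7 genes, 1031 in edgeR's test, and no fold is given from the fit because some sums were at or near 0. Within the Aqp4 class, cells without Agt, a gene of astrocytes in some brain regions, had 513 and 526 CPM of Hsd11b1, and cells with Agt had 428 and 426. This split was chosen after seeing the data, and the groups lay apart in both libraries.

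Fkbp5 (chr17:28399094-28517527, minus strand) was low in every class at this depth. Its highest level was in the Pdgfra class, 14.03 CPM (10.4 to 18.4) in DTRneg and 11.98 CPM (8.74 to 16.0) in DTRpos, from 51 and 45 UMIs. Mog cells had 1.26 and 1.27 CPM from 46 and 29 UMIs, so oligodendrocyte precursors were about 10.3 times above oligodendrocytes, with intervals that do not overlap. All other sums held 5 UMIs or fewer: 4.85 CPM and 0 in Cldn5, 0.342 CPM and 0 in Aqp4, 0 and 3.83 CPM in Rgs5 and 0 and 8.78 CPM in Dcn. In the Aqp4 class of DTRpos the count of 0 allows up to 1.18 CPM (3 counts). The Pdgfra class, highest in Fkbp5, was the lowest in Tsc22d3, another gene that the receptor induces.

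Tsc22d3 (chrX:140539528-140600659, minus strand) was at 275 CPM in DTRneg and 280 CPM in DTRpos in the Cldn5 class, the highest of the 6. Aqp4 cells followed with 117 and 138 CPM, Mog cells had 78.3 and 75.5, Rgs5 cells 77.3 and 53.7, and Pdgfra cells 30.3 and 28.8. Endothelial cells thus held 9.41 times the level of oligodendrocyte precursors, and the order Cldn5, Aqp4, Mog, Pdgfra was the same in both libraries with no overlap. The Dcn class, at 143 and 96.6 CPM, cannot be placed, as 77.8% of its 27 UMIs in DTRneg lay in 5 cells. Against the mean of the other classes Tsc22d3 was higher in Cldn5 cells by 1.96 ± 0.113 (edgeR adjusted p = 2.19e-66) and in Aqp4 cells by 0.82 ± 0.106 (edgeR adjusted p = 5.95e-14). It was lower in Pdgfra cells, by -2.45 ± 0.136 (edgeR adjusted p = 1.49e-70). In Rgs5 cells it was lower by -0.73 ± 0.209 (edgeR adjusted p = 0.0031), a call that was lost when cells were thinned to equal depth (-0.48).

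Sgk1 (chr10:21882184-21999903, plus strand) was nearly missing from astrocytes. It was at 225 CPM (197 to 256) and 221 CPM (187 to 259) in the Cldn5 class of DTRneg and DTRpos, at 145 and 114 in Mog and at 106 and 85.2 in Pdgfra. In Aqp4 cells it was at 3.08 CPM (1.41 to 5.84) and 3.53 CPM (1.62 to 6.71), from 9 UMIs in each library, 67.4 times below the Cldn5 class. The order Cldn5, Mog, Pdgfra held in both libraries. Rgs5 cells had 53.9 and 19.2 CPM and Dcn cells 47.8 and 8.78, but 73.9% of the 23 UMIs of DTRneg Rgs5 cells came from 5 cells. In cells thinned to 2000 UMIs, 26.3% and 33.3% of Cldn5 cells, 20.8% and 19.3% of Mog cells and 16.1% and 16.0% of Pdgfra cells had a UMI of Sgk1, against 0.513% and 0.643% of Aqp4 cells; without thinning the shares were 52.6% and 47.6% in Mog and 37.1% and 29.6% in Pdgfra. The gene was higher in Cldn5 cells by 2.75 ± 0.140, in Mog cells by 2.15 ± 0.114 and in Pdgfra cells by 0.77 ± 0.140, and lower in Aqp4 cells by -4.32 ± 0.304 (edgeR adjusted p = 1.87e-83, 6.87e-78, 1.91e-07 and 4.35e-43). Leaving out DTRneg moved the Pdgfra difference to 1.26. Among Mog cells, those with Klk6, a marker of a subset of mature oligodendrocytes, had 129 and 99.9 CPM of Sgk1 and those without it 148 and 116, a split chosen after seeing the data.

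Per1 (chr11:69095217-69109960, plus strand) was low throughout, and neighbours in the order of its levels overlapped in their intervals. It was at 17.4 CPM in DTRneg and 34.3 in DTRpos in the Cldn5 class, from 18 and 23 UMIs, and lowest in the Mog class, at 5.78 and 7.95 CPM from 211 and 182 UMIs. The other classes lay between 7.52 and 19.2 CPM. Per1 was higher in Cldn5 cells than in the mean of the others by 1.37 ± 0.343 (edgeR adjusted p = 0.000282), and 0.98 without DTRpos. It was lower in Pdgfra cells by -0.76 ± 0.306 (edgeR adjusted p = 0.0261), a call lost without the library covariate, with a stricter class minimum and after thinning. By plain CPM Pdgfra cells, at 9.35 in DTRneg and 10.4 in DTRpos, lay above Mog cells. The difference of Mog cells, -0.54 ± 0.258, missed the threshold (edgeR adjusted p = 0.0645) but passed it with DESeq2, with RLE size factors and with a looser class minimum.

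Pdk4 (chr6:5483351-5496309, minus strand) had its highest CPM in astrocytes, at 19.5 CPM (14.8 to 25.3) in DTRneg and 15.7 CPM (11.2 to 21.4) in DTRpos, from 57 and 40 UMIs. Mog cells had 2.41 and 1.49 CPM from 88 and 34 UMIs, so the Aqp4 class was about 9.03 times above them per total UMIs, although the more numerous Mog cells of DTRneg held more Pdk4 UMIs. Pdgfra cells had 0 UMIs and 1 UMI, Cldn5 cells 2 in each library, Rgs5 cells 1 and 3 (11.5 CPM in DTRpos), and Dcn cells none in either library. Of the 7 genes, Hsd11b1 and Pdk4 were those with their highest mean CPM in the Aqp4 class.

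All 7 genes passed the test across the 6 classes together, in which 92% of all tested genes passed, so that count says little about them. The 4 genes with UMIs in all 12 sums, Nr3c1, Tsc22d3, Sgk1 and Per1, were each compared between 1 class and the others. Hsd11b1, Fkbp5 and Pdk4 had sums at 0 and are left out of these counts, whereas the shares beside them are over all tested genes. In the Cldn5 class 4 of 4 were higher (23.3% of all genes were higher there and 16.2% lower), and in the Mog class 2 were higher and 0 lower (36.3% and 21.9%). In the Pdgfra class 1 was higher and 3 were lower (34.3% and 19.4%), although by plain CPM neither Nr3c1 nor Per1 was lowest there. In the Aqp4 class 1 was higher and 1 lower (30.8% and 19.1%). The Rgs5 class had 0 higher and 1 lower (14.5% and 9.04%), and the Dcn class 0 higher and 1 lower (9.74% and 6.91%). Of the genes left out, none was called in the Cldn5 class. In the Aqp4 class Hsd11b1 and Pdk4 were called higher and Fkbp5 lower, and in the Pdgfra class Fkbp5 higher and Hsd11b1 lower. Hsd11b1 was also called lower in the Mog and Rgs5 classes and higher in the Dcn class. Without its Aqp4 sums Pdk4 would not have passed the count filter, nor would Fkbp5 without its Pdgfra sums. Their calls as higher in these classes are thus tied to the filter and are no independent support. With DESeq2's scaling 43.3% of the genes called in the Mog class were higher, against 62.4% here, and in the Dcn class 81.8% against 58.5%. These p-values rest on 2 libraries that differ in genotype, and the fit gave every gene the spread of the trend over all genes, so a gene with a larger spread of its own has too small a p.

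A list of 15 dissociation and immediate early genes, which respond to tissue digestion, was highest in endothelial cells in both libraries. Their sum was 24480 and 22164 CPM in the Cldn5 class, 19114 and 16775 in Rgs5 and 14951 and 20200 in Dcn, against 4808 and 4540 in Mog, 6543 and 5659 in Pdgfra and 2085 and 2173 in Aqp4. All 15 were higher in the Cldn5 class (median log2 difference 2.75 against 0.01 over all genes) and all 15 lower in the Aqp4 class (median -3.59). The high Sgk1, Per1 and Tsc22d3 of Cldn5 cells and the low Sgk1 of Aqp4 cells lay in the same direction as this list. Other values lay in the opposite direction to the list. In the Aqp4 class Tsc22d3 was higher. In the Rgs5 class 14 of 15 were higher and 1 was lower, while Tsc22d3 was lower (-0.73) and Sgk1 was at -0.49 (edgeR adjusted p = 0.244). The Tsc22d3 call was lost after thinning, and Sgk1 there had 23 UMIs in DTRneg and 5 in DTRpos. In the Dcn class 12 were higher and 1 was lower, while Sgk1 was at -0.85 (edgeR adjusted p = 0.184), from 9 UMIs in DTRneg and 1 in DTRpos. In the Mog class 12 were lower and 1 was higher, and in the Pdgfra class 14 were lower, while Sgk1 was higher in both. That is against the mean of the other classes, and in CPM Sgk1 of Pdgfra cells lay below that of Cldn5 and Mog cells. The part of the list in any of these values was not tested.

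Genes related to the 7 showed which of these patterns were shared. Of the receptor machinery (10 genes, 9 measured: chaperones, coactivators, the mineralocorticoid receptor and a steroid exporter), 6 were higher and 2 lower in Mog cells, and 2 were higher and 5 lower in Aqp4 cells, beside 36.3% of all genes higher and 21.9% lower in Mog cells and 30.8% and 19.1% in Aqp4 cells. The chaperone Hsp90ab1 was at 3565 and 3527 CPM in Mog cells and 727 and 737 in Aqp4 cells, and Hsp90aa1 at 2270 and 2164 against 201 and 194. Abcb1a, the drug and steroid exporter of the blood-brain barrier, was at 1021 and 1069 CPM in Cldn5 cells and under 4 CPM in every other sum. Of 20 other glucocorticoid response genes, 18 were measured: 12 were higher and 2 lower in Cldn5 cells (median 1.49), 8 higher and 7 lower in Aqp4 cells (median 0.82), 5 higher and 10 lower in Mog cells (median -1.19), 0 higher and 14 lower in Pdgfra cells (median -2.09), 7 higher and 2 lower in Rgs5 cells and 9 higher and 0 lower in Dcn cells. The shares of all genes higher and lower were 23.3% and 16.2% in Cldn5, 34.3% and 19.4% in Pdgfra, 14.5% and 9.04% in Rgs5 and 9.74% and 6.91% in Dcn cells. The metallothionein Mt1 was highest in Aqp4 cells, at 8530 and 9539 CPM, whereas Dusp1, a phosphatase, and Nfkbia, the inhibitor of NF-kappa-B, were highest in Cldn5 cells, at 1390 and 1196 and at 1171 and 1265 CPM. Dusp1 and Zfp36 of this list also respond to immediate early stimuli.

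Per1's partners in the circadian clock did not follow its order. Of 12 measured clock genes 9 were higher and 2 lower in Aqp4 cells (median 1.73), and 1 was higher and 6 lower in Cldn5 cells, where Per1 was highest (median -0.67). In Mog cells 3 were higher and 6 lower. These counts stand beside the same shares of all genes, 30.8% and 19.1% in Aqp4, 23.3% and 16.2% in Cldn5 and 36.3% and 21.9% in Mog cells. The clock output factor Hlf was at 161 and 198 CPM in Aqp4 cells and at 1.89 and 2.80 in Mog cells, and the repressor Nr1d1 at 102 and 115 against 3.29 and 4.76. Among paralogs of the 7 genes, 10 of 12 measured, Tsc22d1 shared its top class with Tsc22d3, at 1511 and 1561 CPM in Cldn5 cells, but had 585 and 611 CPM in Pdgfra cells, where Tsc22d3 was lowest.

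Over the 12 sums, on the log2(CPM + 1) scale, the members differed from each other in pattern. Pearson's r was -0.73 between Sgk1 and Hsd11b1, -0.52 between Nr3c1 and Hsd11b1, 0.48 between Sgk1 and Nr3c1, 0.47 between Tsc22d3 and Hsd11b1, 0.10 between Tsc22d3 and Nr3c1 and 0.03 between Tsc22d3 and Sgk1. These are descriptions over 6 classes that each appear in 2 libraries. Among 7108 genes, those most like Sgk1 included Cttnbp2nl and Sptssa (r = 0.95 each), and those most like Tsc22d3 were mt-Rnr2 (0.90), Foxo1 (0.90) and Selenop (0.88). The genes most like Nr3c1 were Sos1 (0.94), Taf7 (0.92) and Gosr2 (0.91). For Hsd11b1 they were Gjb6 (0.97), Gja1 (0.95) and Dhrs3 (0.93), of which Gjb6 and Gja1 encode gap junction proteins of astrocytes and Gja1 is one of the markers listed for the Aqp4 class.

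Between DTRpos and DTRneg hippocampus, Sgk1 was lower in DTRpos in both oligodendrocyte-lineage classes, with an interval that included 0 in endothelium. Nr3c1 was higher in Mog, Pdgfra and Cldn5 cells, by 1.10, 1.15 and 1.27 times. Pdk4 and Hsd11b1, both low in Mog cells, were at 0.616 and 0.574 times their DTRneg level there. The interval of Hsd11b1 included 0, and its log2 ratio lay between -0.92 and -0.08 over alternative settings. Tsc22d3 in Mog cells, where it was best counted, was at 0.965 times. Values are log2 ratios of CPM with exact conditional binomial intervals (95%), which cover counting error only and neither differences between mice nor between libraries. In bulk sums of a class, a shift among cell subtypes and a change of RNA per cell cannot be told apart.

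**Figure D2:**
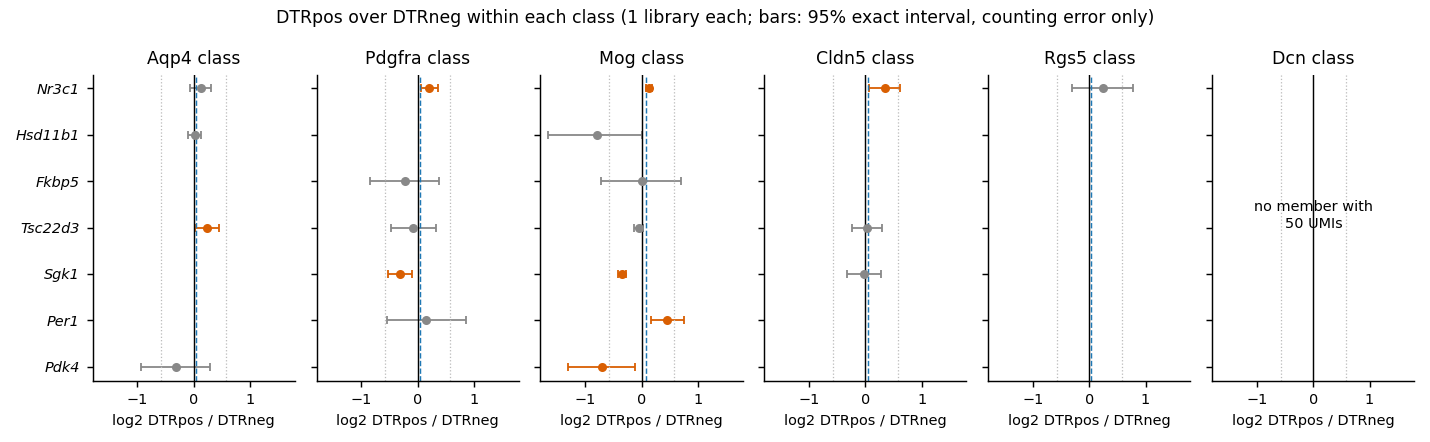
Log2 ratio of DTRpos to DTRneg CPM in each hippocampal class for genes with at least 50 UMIs over both libraries, with 95% exact conditional binomial intervals for counting error (orange where the interval leaves out 0); the dashed line is the median of all genes and dotted lines mark 1.5-fold. Sgk1 lies at -0.35 in the Mog class and -0.32 in the Pdgfra class but at -0.03 in the Cldn5 class, and Nr3c1 lies above 0 in the 5 classes shown for it.

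Sgk1 was at 145 CPM (142 to 149) in DTRneg and 114 CPM (110 to 118) in DTRpos in Mog cells, a log2 ratio of -0.35 (-0.42 to -0.29), and at 106 and 85.2 CPM in Pdgfra cells, -0.32 (-0.54 to -0.10). In Cldn5 cells, at 225 and 221 CPM, the ratio was -0.03 (-0.33 to 0.28). The thinly counted Rgs5 and Dcn classes gave -1.49 (-3.24 to -0.06) and -2.44 (-7.90 to 0.41), from 28 and 10 UMIs in all. The Mog ratio was -0.23 with cells thinned to equal depth, -0.43 with median-ratio scaling, -0.31 with cells weighted equally and -0.35 without the 5 richest cells. The Pdgfra ratio was -0.11 when cells were thinned, while a class minimum of 5 UMIs gave -0.47. DTRneg cells were deeper, and the dissociation and immediate early list had a median log2 ratio of -0.33 in Pdgfra cells (1 of 14 above 0), -0.17 in Mog cells (6 of 15), -0.18 in Rgs5 cells (3 of 15) and -0.15 in Cldn5 cells (4 of 15). Its median was above 0 in Aqp4 cells, at 0.25 (6 of 9), and in Dcn cells, at 0.33 (10 of 13). The part of depth and of this list in the Sgk1 difference was not tested.

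**Figure D3:**
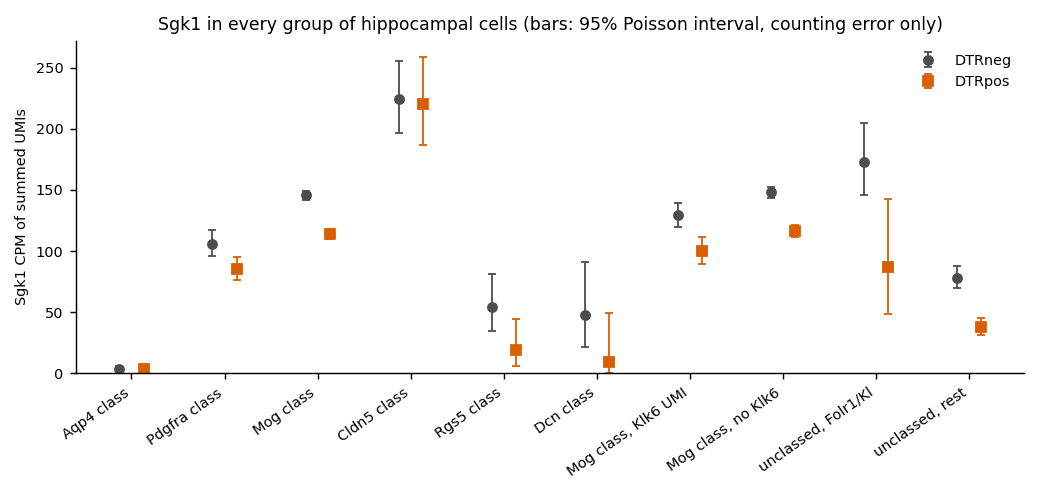
Sgk1 in CPM (linear axis from 0) in DTRneg and DTRpos for the hippocampal classes and for groups split after seeing the data (Mog cells with and without Klk6, and cells in no class with and without choroid plexus markers), with 95% exact Poisson intervals. DTRpos lies below DTRneg in both Klk6 groups and in both groups of cells without a class, and within its interval in the Cldn5 class.

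The same direction held for Sgk1 within the splits of oligodendrocytes, 129 against 99.9 CPM in cells with Klk6 and 148 against 116 in cells without. Cells in no class that carried the choroid plexus genes Folr1 and Kl (171 DTRneg and 40 DTRpos cells) had 173 CPM (146 to 205) in DTRneg and 86.7 CPM (48.5 to 143) in DTRpos, a log2 ratio of -0.999 (-1.87 to -0.23). The remaining cells without a class had 78.2 and 37.7 CPM, -1.05 (-1.38 to -0.74). These remaining cells are a mixture whose makeup differed between libraries, with choroid plexus markers at 7474 CPM in DTRneg and 1154 in DTRpos and Aqp4-class markers at 5946 and 7743. In Aqp4 cells 9 UMIs of Sgk1 per library allow no comparison.

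Nr3c1 was at 226 and 248 CPM in Mog cells, a log2 ratio of 0.13 (0.09 to 0.18), at 187 and 216 in Pdgfra cells, 0.21 (0.06 to 0.36), and at 243 and 309 in Cldn5 cells, 0.34 (0.07 to 0.61). Aqp4 cells gave 0.13 (-0.07 to 0.32), Rgs5 cells 0.23 (-0.31 to 0.77) and Dcn cells 1.02 (0.05 to 2.001), the last from 40 UMIs. The point estimate was above 0 in all 6 classes, beside a median over all genes of 0.03 to 0.07. In Mog cells the ratio was 0.03 after thinning and 0.06 with median-ratio scaling.

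Tsc22d3 had intervals that included 0 in endothelium (275 and 280 CPM, log2 ratio 0.03, -0.25 to 0.30), in Mog cells (78.3 and 75.5 CPM, -0.05, -0.14 to 0.03) and in Pdgfra cells (30.3 and 28.8 CPM, -0.07, -0.47 to 0.32). Of the 6 classes its interval left out 0 in Aqp4 cells, 117 and 138 CPM, 0.24 (0.02 to 0.46). In Mog cells it was -0.20 after thinning and -0.14 with cells weighted equally. Hsd11b1 in astrocytes, at 461 and 468 CPM, had a log2 ratio of 0.02 (-0.09 to 0.13), which lay at 0.15 with a class minimum of 5 UMIs and at -0.13 after thinning. Fkbp5 in Pdgfra cells gave -0.23 (-0.84 to 0.38), and Per1 in Mog cells, 5.78 and 7.95 CPM, gave 0.46 (0.17 to 0.75). Per1 was at 0.98 (0.02 to 1.95) in Cldn5 cells from 41 UMIs and at 0.15 (-0.55 to 0.86) in Pdgfra cells. Pdk4 was at -0.31 (-0.93 to 0.30) in Aqp4 cells, and Hsd11b1 in Cldn5 cells at -2.19 (-5.37 to -0.06), from 14 UMIs and 2.

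Ratios beyond 1.5-fold in either direction, among genes with at least 50 UMIs over both libraries, were counted as different. In Mog cells 2 members were below that limit, Pdk4 at -0.70 (-1.31 to -0.11) and Hsd11b1 at -0.80 (-1.66 to 0.003), both from a class where they were near 0, beside 2.18% of all genes lower and 3.19% higher. Over alternative settings Hsd11b1 there lay between -0.92 and -0.08, and Pdk4 between -0.81 and -0.65. Of the 50 Hsd11b1 UMIs of DTRneg Mog cells, 38% lay in 5 cells. No member with at least 50 UMIs over both libraries passed the limit in the Aqp4 class (3.55% of genes higher and 3.27% lower), the Pdgfra class (2.84% and 2.7%), the Cldn5 class (5.24% and 4.62%), the Rgs5 class (5.49% and 6.86%) or the Dcn class (8.19% and 8.95%). With median-ratio scaling 43.3% of the genes past the limit in Mog cells were higher, against 59.4% here, and in Cldn5 cells 42.9% against 53.2%. The related lists gave few such genes, which are named here after their values were seen. Of 17 other response genes 1 was past the limit in Mog cells (list median -0.02), the cell cycle inhibitor Cdkn1a, at 3.67 CPM in DTRneg and 16.3 CPM in DTRpos from 134 and 373 UMIs, a log2 ratio of 2.15. In Cldn5 cells Angptl4 was higher and Cebpd and Zfp36 were lower, 3 of 12 (list median -0.20), and in Rgs5 cells Mt1, Dusp1 and Zfp36 were lower, 3 of 9 (list median -0.39). In Aqp4 cells Klf15, a transcription factor of metabolism, was lower, at 39.0 and 23.5 CPM, and in Dcn cells Dusp1 and Zfp36 were higher. Among clock genes Per3 was lower in Pdgfra cells, at 73.7 and 43.7 CPM, and Cry1 was higher in Pdgfra and in Aqp4 cells, while 0 of 12 were past the limit in Mog cells. Of the receptor machinery the coactivator Ncoa2 was higher in Aqp4 cells and the co-chaperone Ptges3 lower in Dcn cells.

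In meningeal CD4+ T cells the receptor, Hsd11b1 and Tsc22d3 were all well detected, Sgk1, Per1 and Fkbp5 were low, and Pdk4 was nearly absent. Cells were put into a state by Foxp3 (93 cells in replicate 1 and 305 in replicate 2) or, without Foxp3, by marker lists of naive (145 and 191), Th1 (717 and 1098), interferon-response (45 and 31) and Tfh (52 and 42) cells, and 372 and 781 cells had no state. About 62.4% and 61.6% of Foxp3-positive cells rested on a single Foxp3 UMI. All 5 further regulatory T-cell markers were raised in Foxp3-positive cells and all 5 naive markers in naive cells, in both replicates. Other lists were raised too. All 6 NK-receptor markers were raised in Th1 cells of both replicates, at a sum of 131 and 259 CPM. All 5 cycling markers were raised in Foxp3-positive cells of both, at a sum of 416 and 333 CPM. The Tfh state was not separated from regulatory T cells: 3 of 5 regulatory T-cell markers were raised in it, and they summed to 1781 and 2100 CPM beside 2100 and 2268 CPM of its own markers. NK-receptor and cycling states had too few cells, 2 and 3 and 6 and 15, and were left out of the comparisons.

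**Figure D4:**
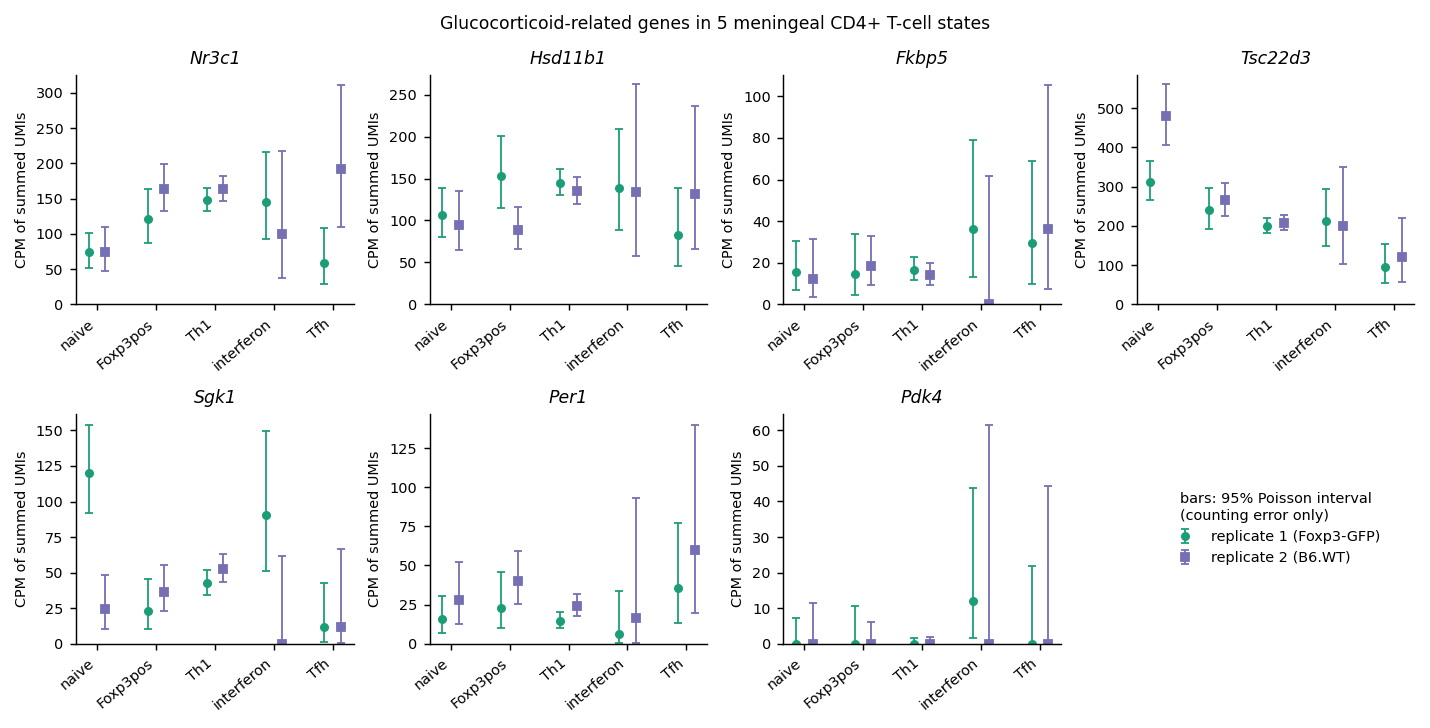
Level of each of the 7 genes in the 5 meningeal T-cell states, in CPM on a linear axis from 0 that differs between genes, with 1 point per replicate and 95% exact Poisson intervals for counting error. Tsc22d3 is highest in naive cells in both replicates (312 and 479 CPM), while Sgk1 in naive cells is at 120 CPM in replicate 1 and 24.6 CPM in replicate 2.

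Nr3c1 was at 148 CPM in replicate 1 and 164 CPM in replicate 2 in Th1 cells, 121 and 163 in Foxp3-positive cells and 73.6 and 73.7 in naive cells. Naive cells were thus the lowest of these 3 states in both replicates. Interferon cells had 145 and 100 CPM and Tfh cells 59.2 and 192, from 24 and 6 and from 10 and 16 UMIs. In the fit of the 10 state sums (edgeR, no replicate block) naive cells differed from Th1 cells by -0.91 ± 0.386 (log2, SE, edgeR adjusted p = 0.514). With the replicate number as a block the difference was -0.90 ± 0.242 (edgeR adjusted p = 0.0157) and passed the threshold. Foxp3-positive cells differed from naive cells by 0.75 ± 0.397 (edgeR adjusted p = 0.658) and from Th1 cells by -0.17 (edgeR adjusted p = 0.9998).

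Hsd11b1 was detected in all 5 states, at 145 and 135 CPM in Th1, 153 and 88.3 in Foxp3-positive, 107 and 95.1 in naive, 139 and 134 in interferon and 82.8 and 132 in Tfh cells. Replicates lay apart in Foxp3-positive and Tfh cells and close together in Th1, interferon and naive cells. Naive cells lay below Th1 cells in both, by -0.44 (-0.88 to -0.03, counting error) in replicate 1 and -0.51 (-1.09 to 0.03) in replicate 2. No contrast of Hsd11b1 passed the threshold, with -0.30 ± 0.322 for naive minus Th1 (edgeR adjusted p = 0.958), 0.04 for Foxp3-positive minus naive and -0.26 for Foxp3-positive minus Th1 (-0.69 without replicate 1). In cells thinned to 1000 UMIs, 13.3% of Th1 cells had a UMI in both replicates, and no cell type that should lack the gene was in these libraries to set the background. Lamb3 and an antisense RNA lie over Hsd11b1, at 20.9 and 18.9 CPM and at 3.97 and 5.66 CPM, and whether counting used strand is not given in the sources used here. Set beside the hippocampus, where tables were processed separately and chemistry may differ, T cells lay below astrocytes and far above oligodendrocytes.

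Tsc22d3 passed the test across the 5 states, 1 of the 6 tested members to do so without the replicate block and with the count filter (edgeR F-test, adjusted p = 0.0174, beside 2.52% of 6062 genes called). It was at 312 and 479 CPM in naive cells, 240 and 265 in Foxp3-positive, 201 and 208 in Th1, 212 and 200 in interferon and 94.6 and 120 in Tfh cells. Naive cells were highest and Tfh cells lowest in both replicates, and the 2 values of naive cells lay above those of every other state. In replicate 1 the counting interval of naive cells (266 to 364 CPM) overlapped those of Foxp3-positive (191 to 297) and interferon cells (147 to 294). Foxp3-positive minus naive was -0.38 (-0.78 to 0.01, counting error) in replicate 1 and -0.85 (-1.18 to -0.53) in replicate 2. Pairwise, naive minus Th1 was 1.10 ± 0.226 (edgeR adjusted p = 0.0642) and Foxp3-positive minus naive -0.83 ± 0.230 (edgeR adjusted p = 0.204), both short of the threshold. With the replicate block they were 1.08 ± 0.148 and -0.82 ± 0.165 (edgeR adjusted p = 2.33e-05 and 0.00208), and both passed, beside 720 and 545 of 6062 genes. Naive minus Th1 also passed with DESeq2 (1.11, adjusted p = 0.00262) and in cells with exactly 1 TRB chain (1.13), and it was 0.75 without replicate 2. The F-test no longer passed with a hashtag margin of 2 (edgeR adjusted p = 0.0704) or with at least 5 UMIs for a state list, which drops the Tfh state (edgeR adjusted p = 0.111). Foxp3-positive cells did not differ detectably from Th1 cells in Tsc22d3 (0.27, edgeR adjusted p = 0.9998).

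None of the 6 tested members passed a pairwise contrast without the block, beside 0.363% of all genes higher and 0.478% lower for naive minus Th1, 0.379% and 0.099% for Foxp3-positive minus naive, and 0.0825% and 0.0165% for Foxp3-positive minus Th1. At an unadjusted p under 0.05, edgeR gave 2 contrasts of Tsc22d3, those of naive cells with Th1 and with Foxp3-positive cells, and 1 of Nr3c1, naive minus Th1. In DESeq2 Tsc22d3 passed in naive minus Th1.

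Sgk1 in naive and interferon cells of replicate 1 rested on few cells. Naive cells had 120 CPM in replicate 1, from 62 UMIs of which 77.4% lay in 5 cells and 23 in a single cell, and 24.6 CPM in replicate 2, from 8 UMIs. Th1 cells had 42.4 and 52.4 CPM from 99 and 109 UMIs spread over 93 and 100 cells, and Foxp3-positive cells 23.1 and 36.6. The 90.7 CPM of interferon cells in replicate 1 were 15 UMIs of 3 cells, and replicate 2 had none. The test across states was not passed (edgeR adjusted p = 0.689, and 0.107 with the replicate block), but without a filter on low counts it was (edgeR adjusted p = 0.00377).

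Per1 and Fkbp5 were at the limit of what these cells could show. Per1 was at 23.1 and 40.0 CPM in Foxp3-positive cells, 15.5 and 27.6 in naive and 14.6 and 24.0 in Th1, each higher in replicate 2. Fkbp5 was at 14.4 and 18.3 CPM in Foxp3-positive cells, 15.5 and 12.3 in naive and 16.7 and 13.9 in Th1 cells, with intervals that overlapped. The edgeR adjusted p across states was 0.607 for Per1 and 0.962 for Fkbp5. Pdk4 had 0 UMIs in Foxp3-positive, naive, Th1 and Tfh cells of both replicates, where Th1 counts allow up to 1.29 and 1.44 CPM (3 counts), and 2 UMIs in 1 interferon cell of replicate 1.

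Most other genes of the response leaned the same way as Tsc22d3 in naive against Th1 cells. Of 13 measured response genes 11 were above 0 in naive minus Th1, with a median of 1.60 against 0.00 over all genes, and 1 passed the test across states: Il7r, the receptor of a survival signal of resting T cells. In naive minus Th1 itself 0 of the 13 passed in edgeR (4 at an unadjusted p under 0.05), 1 passed in DESeq2, again Il7r, and 9 passed with the replicate block, with which 720 of all 6062 genes passed. Zfp36, which destabilises cytokine mRNAs, was at 587 and 767 CPM in naive cells and 175 and 326 in Th1 cells. In Foxp3-positive cells it was at 419 and 945 CPM. Nfkbia was at 575 and 898 CPM in Foxp3-positive cells, above its 467 and 583 CPM in naive cells. In Foxp3-positive minus naive 4 of the 13 response genes were above 0, with a median of -0.53. Of the dissociation and immediate early genes 14 of 15 were above 0 in naive minus Th1, with a median of 1.08, and their sum was 8290 and 6573 CPM in naive cells, 4395 and 5084 in Th1 and 5588 and 5924 in Foxp3-positive cells. In naive minus Th1 0 of these 15 passed in edgeR (5 at an unadjusted p under 0.05), 2 passed in DESeq2 and 10 with the block, and their part in the Tsc22d3 difference was not tested. Of the receptor machinery 0 of 8 genes passed edgeR's test across states (1 at an unadjusted p under 0.05, and 1 with DESeq2 and with the block, the exporter Abcb1a). Of the clock genes 0 of 3 passed in edgeR (0 unadjusted), in DESeq2 or with the block. Of the paralogs 0 of 5 passed in edgeR (1 unadjusted) and in DESeq2, and 2 passed with the block, Tsc22d1 and Pdk1.

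Across both tissues the members fell into those seen in T cells and hippocampus alike and those of 1 tissue. In every class sum and every sum of the 5 compared states, Nr3c1 lay between 59.2 and 309 CPM and Tsc22d3 between 28.8 and 479. Hsd11b1 was above 80 CPM in the 5 T-cell states, and in the hippocampus it was so in the Aqp4 and Dcn classes and in the cells without a class (87.5 and 145 CPM). Pdk4 had its highest level in astrocytes, and Fkbp5 stayed under 40 CPM in all these class and state sums.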

How the data were processed

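The 7 genes and the gene lists were chosen with earlier results of these data known, and no list was tested as a set. The authors deposited unnormalized UMI counts for each cell, made with Cell Ranger (4.0.0 for meningeal replicate 1, 6.0.0 for replicate 2 and 6.1.0 for the hippocampus, per the file headers) on mm10, per the submitters' processing notes, which also name Seurat. The authors' normalization is not used here, and whether counting used strand is not given in the sources used here. Gene positions come from the file's gene IDs in the GRCm38 annotation.

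Hippocampal cells needed 500 genes and at most 15% mitochondrial UMIs, and 242 DTRneg and 158 DTRpos doublets called by Scrublet (scanpy 1.11.5) were removed. A class needed 2 UMIs of its marker and 2 times the next marker; 27.8% and 28.7% of Aqp4 cells were at that minimum. T cells needed 500 genes, at most 10% mitochondrial UMIs, T-cell transcripts, and 10 counts of the labelled hashtag with 20 times the next; a state needed 1 Foxp3 UMI or 3 UMIs of its list with 2 times the next list. Hashtags were taken by name, since the labels give hashtags 7 and 10 the same sequence. No doublet caller was run on the meninges, where 4.44% and 6.26% of cells with a TRB chain had more than 1.

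Counts were summed per class or state and library (at least 20 cells) and fitted with edgeR 4.0.16 in R 4.3.3 (TMM, filterByExpr, quasi-likelihood, threshold 0.05 on Benjamini-Hochberg adjusted p). Nothing in the labels says that meningeal replicates are single animals, so p-values measure the spread between these libraries. States with the same replicate number share a library, and their deviations from the state means correlated at 0.186 to 0.725 over 6062 genes, so the numbers pair them. DTRpos was compared with DTRneg without a test, from CPM computed from the deposited counts. Intervals used scipy 1.17.1. The steps were tested on simulated data, with 100 genes changed per fold. In the Mog contrast 100% of 2-fold changes were recovered (12364 genes in the fit). In Foxp3-positive minus Th1 5% of 2-fold and 92% of 4-fold changes were recovered (5723 genes in the fit). Changed genes were drawn from those above the median CPM, and only Mog or Foxp3-positive sums were changed. These shares do not cover genes of lower CPM or other classes and states. Named genes are the 7 members, the 3 genes most like each member with a mean of at least 20 CPM, and from each list up to 4 genes with the largest mean CPM; other list genes, such as Il7r and Cdkn1a, and the splits by Agt and Klk6 were named after their values were seen. A gene that this rule names beside Sgk1 is not reported here. Alternatives used RLE, DESeq2 1.42.0, no filter, other minimums and margins, thinning, left-out libraries and the replicate block.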

Additional observations from a re-analysis of the deposited data

Results flagged for a closer look

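Sgk1 in naive against Th1 cells went opposite ways in the meningeal replicates, at a log2 difference of 1.501 in replicate 1 (1.02 to 1.97) and -1.09 in replicate 2 (-2.34 to -0.06). The difference between the replicates was not tested. In replicate 1, 77.4% of the 62 Sgk1 UMIs of naive cells lay in 5 cells, and the replicates also differ in genotype and depth.

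Hippocampal cells in no class, without choroid plexus markers, had 106 CPM of Hsd11b1 in DTRneg and 153 CPM in DTRpos (log2 ratio 0.53, 0.33 to 0.73), a signal outside the 6 classes. Their Nr3c1 was at 103 and 125 CPM (log2 ratio 0.27, 0.06 to 0.48). Markers of the Aqp4 class summed to 5946 and 7743 CPM in these cells, and their part in either difference was not tested.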

How the results depend on the processing

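No called class difference of Nr3c1, Tsc22d3, Sgk1 or Per1 reversed direction under an alternative setting. The same held for member ratios from at least 50 UMIs whose interval left out 0 or that were past 1.5-fold. Only these could be scored as reversed. The called class differences of Hsd11b1, Fkbp5 and Pdk4 were not scored. Nor were ratios from fewer than 50 UMIs, such as those of Per1 and Hsd11b1 in Cldn5 cells. The 792 alternative values also include counts of genes, p-values across classes or states, and uncalled differences. Thinning to equal depth lowered the genes called to 3510 from 5377 in the Cldn5 class, 1707 from 3204 in Rgs5 and 1244 from 2267 in Dcn, and the genes past 1.5-fold between DTRpos and DTRneg to 299 from 472, 153 from 306 and 71 from 157 (97 in Dcn without the 5 richest cells). Across meningeal states 153 genes passed. With the replicate block 1033 did, with no filter 792, with DESeq2 350 and with a state list of at least 5 UMIs, which drops the Tfh state, 97. For Foxp3-positive minus Th1 (6 genes) the block gave 334, no filter 170, DESeq2 51, thinning 23, exactly 1 TRB chain 13, a hashtag margin of 5 gave 3, the stricter state list 2 and a hashtag margin of 2 gave 0 in edgeR (284 at an unadjusted p under 0.05). For Foxp3-positive minus naive (29 genes) the block gave 545, no filter 226, DESeq2 90, the stricter state list 13 and a margin of 2 gave 6. For naive minus Th1 (51 genes) the block gave 720, no filter 304, DESeq2 119, exactly 1 TRB chain 78 and a margin of 2 gave 30. The cause of these shifts was not tested. The replicate block changed no call of the members other than Tsc22d3 and Nr3c1. In the hippocampus library was a covariate, so classes were compared within the library they share. DTRpos and DTRneg could not be paired, as there was 1 library of each. Fits without a library have no residual degrees of freedom and give values only. Fewer than 50 UMIs limit most values of Fkbp5, Per1 and Pdk4.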

Other observations

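Hippocampal cells with choroid plexus markers, which the 6 classes leave out, had another profile of the members than any class. Sgk1 was at 173 CPM in DTRneg and 86.7 CPM in DTRpos, from 138 and 15 UMIs, whereas the receptor Nr3c1 was at 16.3 and 17.3 CPM, from 13 and 3 UMIs, and Tsc22d3 at 11.3 and 5.78 CPM, from 9 UMIs and 1 UMI. Nr3c1 in these cells was thus below its level in all 6 classes.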
